A study of Homo sapiens with 3 samples.

Results

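Solute carriers are membrane proteins that move amino acids, sugars, ions, metals, nucleotides, vitamins and drugs across the plasma membrane and the membranes of organelles, and their SLC symbols group them by sequence family. The genes described here were chosen by symbol: platform symbols that start with SLC and a digit, or with SLCO, apart from the 3 excepted genes SLC2A1, SLC2A3 and SLC30A1. They also had to be above background, meaning a detection value over 0.99 on the array of the MYC sample or that of the empty vector. Of 464 probes for 369 such genes, 165 probes for 155 genes met both conditions, among 8148 named genes above background in all. The other 214 solute carrier genes were not above background on either array. Of the 155, 131 were above background on both arrays by their brightest probe, 10 on the MYC-labelled array alone and 14 on the vector array alone. As background, MYC is known to induce carriers of glutamine and essential amino acids such as SLC1A5 and SLC7A5, and PI3K signalling is known to promote nutrient uptake. Prostate epithelium is known for taking up zinc through SLC39 importers and for secreting citrate.

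The cells were RWPE1, a human line from benign prostate epithelium, and carried a retrovirus for MYC overexpression, for the constitutively active PI3K mutant E545K, or for the empty vector PMN. All were grown in K-SFM with bovine pituitary extract and EGF, and none was treated before harvest. Each group was 1 sample on 1 Illumina array, so there is no replicate and no test below, and each oncogene is represented by that 1 sample. Because these are bulk samples, fewer cells of a type and less RNA per cell cannot be told apart.

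Values are given in 2 forms. A level is a linear signal scaled to the vector array. A difference is the log2 difference of the authors' deposited values, where 1 is 2-fold. The only error available is technical. It holds the disagreement of probes on the same arrays, and no error between arrays, labellings or cultures. It is the SD of the difference between 2 probes of 1 gene, divided by the square root of 2. Over 951 genes it was 0.26 for the MYC-labelled array minus the vector, 0.26 for PI3K minus the vector and 0.22 for the MYC-labelled array minus PI3K. The deposited signals hold a background level, which can shrink the differences of dim genes. Over all probes, dim ones included, the median difference was 0.25 for the MYC-labelled array minus the vector and 0.22 for PI3K minus the vector. Over genes above background these medians were 0.067 and 0.051. Dim probes thus tended to lie above 0, and a small value above 0 in a dim gene is not a cautious one. Where 1 of the arrays was not above background, the fold is a lower bound. The PI3K array has no detection values used here, and a scaled signal of 283.7 stood in as its limit, which 133 of the 155 genes reached. Just inside the detection limit lay SLC35B4 at 0.991, and just outside it lay SLC25A17 at 0.989.

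The introduced genes and the cell type were looked at first. The only MYC probe read 5229 on the MYC-labelled array, 3520 on the PI3K array and 6229 on the vector array, so it goes against the label and each direction drawn from that array rests on the label. PIK3CA had 0 probes. Of 10 epithelial markers, 8 had probes and all 8 were detected on the MYC-labelled or the vector array (KRT17 and TP63 were not used here). The count was 0 of 5 for fibroblast, 0 of 4 for endothelial and 1 of 4 for leukocyte markers. The leukocyte marker was CD14, at 113.5 on the MYC-labelled array, 159.4 on the PI3K array and 307.4 on the vector array. The epithelial markers, with the keratins KRT5, KRT14 and KRT15 among them, summed to 18315 on the MYC-labelled array, 33893 on the PI3K array and 51026 on the vector array. KRT5 and KRT14 carried most of that sum, and 3 of the 8 markers were higher on the MYC-labelled array than on the vector array. These were EPCAM at 1061 against 517.7, KRT18 at 301.8 against 148.2 and ITGA6 at 1455 against 1223. The part of these markers in the differences below was not tested.

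The first comparison asks how transporter genes differ in cells labelled as overexpressing MYC. The 5 genes with the highest differences from the vector were SLC7A2, which carries arginine and lysine, the organic anion carrier SLCO4A1, the neutral amino acid carrier SLC6A15, the prostate protein SLC45A3 and the urate carrier SLC2A9. The glutamate transporter SLC1A3 and the copper transporter SLC31A2 were lower. Of 155 solute carrier genes, 8 (5.16%) had at least a 2-fold higher level on the MYC-labelled array, against 2.31% of all 8148 genes, and 3 (1.94%) were at least 2-fold lower, against 4.77%. Counted by bounds where a gene was dim on 1 array, these numbers were 7 and 2, against 1.88% and 3.57% of all genes. SLC7A2 and SLC45A3 passed the filter by the MYC-labelled array alone and SLC47A2 by the vector array alone, which favours their directions. Over the 131 members above background on both of these arrays, 6 (4.58%) were higher, against 1.83% of all such genes. In the same set 2 (1.53%) were lower, against 2.71%. Over the 155 genes the median difference was 0.18, with 100 (64.5%) above 0, beside 0.067 and 56.4% over all genes. With no detection filter, the medians lay closer, at 0.27 for solute carrier genes and 0.23 for all genes. The shares at least 2-fold higher were then 2.17% and 1.20%. Centred on the all-gene median, 6 (3.87%) were higher, against 1.87% of all genes, and 5 (3.23%) lower, against 5.34%.

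The levels on each array show how these genes differ from one another. SLC7A2 read 509.8 on the MYC-labelled array, 265.0 on the PI3K array and 107.5 on the vector array. It was above background on the MYC-labelled array alone, at least 2.19-fold higher than on the vector array. SLCO4A1, which transports organic anions including thyroid hormone, read 897.6 on the MYC-labelled array, 1170 on the PI3K array and 279.4 on the vector array. The MYC-labelled array differed from the vector by 1.68 and the PI3K array by 2.07, and both were high where the vector was close to background. SLC6A15 read 2685 on the MYC-labelled array, 1217 on the PI3K array and 914.2 on the vector array, a difference of 1.55 between the MYC-labelled array and the vector. Its second, dimmer probe gave 0.42, so the size of this difference depends on the probe.

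SLC2A9, a urate carrier of the glucose transporter family, read 872.3 on the MYC-labelled array, 363.8 on the PI3K array and 366.2 on the vector array. Only the MYC-labelled array was high, by 1.25 over the vector. SLC45A3, known as prostein and typical of prostate luminal cells, read 419.1 on the MYC-labelled array, 269.8 on the PI3K array and 170.8 on the vector array. Its difference from the vector was 1.30, and since the vector array was not above background the bound is at least 1.80-fold. SLC27A2 and SLC27A5, acyl-CoA synthetases of the fatty acid transport family, differed from the vector by 1.12 and 1.05. SLC27A2 read 689.6 on the MYC-labelled array, 240.8 on the PI3K array and 317.2 on the vector array. SLC27A5 read 1193, 748.6 and 577.7 on these arrays, so here the PI3K array lay in between. SLC16A9, of the monocarboxylate transporter family, read 617.3 on the MYC-labelled array, 334.4 on the PI3K array and 295.7 on the vector array, a difference of 1.06 from the vector.

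SLC31A2, a copper transporter of intracellular membranes, read 616.3 on the MYC-labelled array, 709.6 on the PI3K array and 1614 on the vector array. The MYC-labelled array lay 1.39 below the vector on the log2 scale (a difference of -1.39), and the PI3K difference was -1.19. SLC1A3, a glutamate and aspartate transporter, read 617.4 on the MYC-labelled array, 465.7 on the PI3K array and 1576 on the vector array, with differences of -1.35 and -1.76 from the vector. Both genes were highest on the vector array. SLC47A2, which exports organic cations and drugs, read 195.0 on the MYC-labelled array, 396.9 on the PI3K array and 483.5 on the vector array. It was not above background on the MYC-labelled array and at least 1.70-fold lower there than on the vector array. SLC15A3, a histidine and peptide transporter of endolysosomes, gave -0.996 at 120.2 on the MYC-labelled array and 239.7 on the vector array, just short of the threshold and too dim for a bound.

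**Figure D1:**
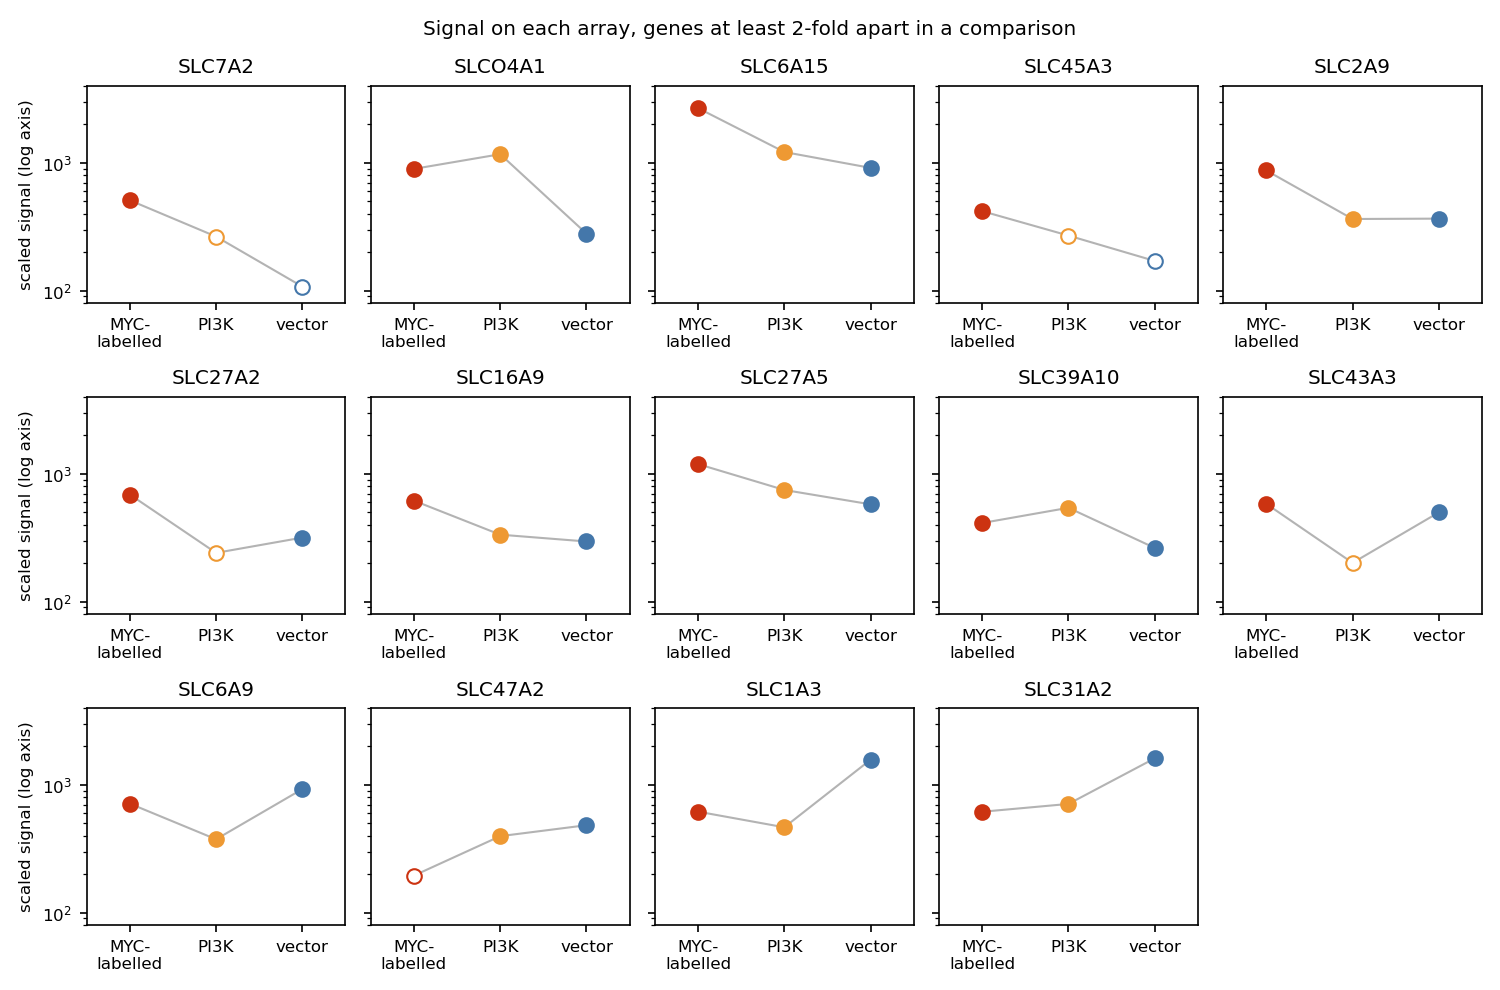
Scaled signal (log axis) of the 14 solute carrier genes at least 2-fold apart in any comparison, 1 point for each of the MYC-labelled array, the PI3K array and the vector array; open points were not above background. SLCO4A1 is high on both oncogene arrays, and SLC1A3 and SLC31A2 are highest on the vector array.

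Short promoter stretches of genes named here are shown so that the letters bound by known regulators can be seen in place. MYC with its partner MAX binds the E-box CACGTG, and ATF4 with a CEBP partner binds the amino acid response element, searched as TGATGNAAN. The sequences are the 250 bases before a RefSeq start, build GRCh38.p14, 5′ to 3′, with matches in capitals. Both strands were searched, and the E-box reads the same on each. The table held windows for 132 of the 155 genes. Among the 14 genes at least 2-fold apart in any comparison, 9 had windows, and 3 of their 15 windows held a match. These 3 are shown with 2 more, SLC38A5 and the SLC4A2 window with the most E-boxes (3), all picked after the values were seen.
SLC16A9, chr10:59710080-59710329, minus strand: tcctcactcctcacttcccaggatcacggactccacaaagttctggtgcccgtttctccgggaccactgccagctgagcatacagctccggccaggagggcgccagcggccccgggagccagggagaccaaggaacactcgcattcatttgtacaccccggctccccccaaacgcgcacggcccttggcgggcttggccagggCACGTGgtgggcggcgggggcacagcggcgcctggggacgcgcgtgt
SLC27A5, chr19:58511993-58512242, minus strand: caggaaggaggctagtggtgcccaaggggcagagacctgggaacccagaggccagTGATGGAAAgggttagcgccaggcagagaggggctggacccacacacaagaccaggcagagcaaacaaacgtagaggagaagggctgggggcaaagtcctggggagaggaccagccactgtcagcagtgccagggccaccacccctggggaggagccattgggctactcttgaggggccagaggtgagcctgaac
SLC1A3, chr5:36596338-36596587, plus strand: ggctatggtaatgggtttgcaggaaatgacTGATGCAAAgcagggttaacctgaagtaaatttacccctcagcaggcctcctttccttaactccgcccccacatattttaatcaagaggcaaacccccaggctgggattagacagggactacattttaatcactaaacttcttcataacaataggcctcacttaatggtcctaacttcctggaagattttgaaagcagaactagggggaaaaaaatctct
SLC38A5, chrX:48470261-48470510, minus strand: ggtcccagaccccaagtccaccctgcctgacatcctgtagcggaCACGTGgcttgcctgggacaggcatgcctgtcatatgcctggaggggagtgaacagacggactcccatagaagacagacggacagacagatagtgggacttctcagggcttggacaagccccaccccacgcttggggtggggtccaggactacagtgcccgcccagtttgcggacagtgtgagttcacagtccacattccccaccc
SLC4A2, chr7:151062392-151062641, plus strand: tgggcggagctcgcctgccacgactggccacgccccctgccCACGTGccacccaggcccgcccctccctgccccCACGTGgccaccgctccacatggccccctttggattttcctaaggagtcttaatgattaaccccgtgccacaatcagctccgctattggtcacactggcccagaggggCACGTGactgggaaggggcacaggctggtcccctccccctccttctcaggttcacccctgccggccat
SLC16A9 carries its E-box 47 bases before the start, and SLC38A5 carries one at 206 bases. The response element letters lay 220 bases before a start of SLC1A3, which was lower, and 195 bases before a start of SLC27A5, which was higher. By gene, 23 of 132 solute carrier genes had an E-box in a window (17.4%), beside 820 of 6852 genes above background (11.97%) and 7.73% of all genes in the table. The response element letters were in 4 of 132 (3.03%), beside 2.23% and 3.87%. The 23 genes with an E-box had a median difference of 0.25 on the MYC-labelled array from the vector, with 17 above 0, and the 109 without one a median of 0.12, with 67 above 0. For the MYC-labelled array minus the PI3K array the medians were nearly equal, 0.12 with an E-box and 0.11 without, and for PI3K minus the vector they were 0.034 and -0.011. These are matches of letters, given as a description.

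Amino acid transporters were then taken as a group. On the MYC-labelled array, 13 of 19 (68.4%) were above 0, with a median of 0.11, beside 56.4% and 0.067 over all genes. SLC7A2 and SLC43A2 passed the filter by the MYC-labelled array alone, which favours values above 0. Over the 17 detected on both the MYC-labelled and vector arrays the median was 0.10, beside 0.090 over all such genes. The glutamine transporter SLC38A5 read 513.3 on the MYC-labelled array, 302.8 on the PI3K array and 264.2 on the vector array, a difference of 0.96 from the vector. The essential amino acid carrier SLC7A5 and its heavy chain SLC3A2 gave -0.20 and 0.15, and the glutamine carrier SLC1A5 gave -0.089. All were smaller in size than the technical SD of 0.26, which leaves out error between arrays. SLC7A5P2, a pseudogene copy of SLC7A5, gave 0.27, and the probes of these copies may read each other's transcripts. The arginine and lysine carrier SLC7A1 gave 0.45 and the lysosomal carrier SLC36A1 0.47. The leucine carrier SLC43A2, above background on the MYC-labelled array alone, was at least 1.33-fold higher than on the vector array. The other amino acid carriers of SLC38 apart from SLC38A5 lay between -0.11 and 0.10.

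Mitochondrial carriers, which exchange metabolites across the inner membrane, were above 0 on the MYC-labelled array in 17 of 24 cases (70.8%), beside 56.4% of all genes. Their median was 0.28. None was at least 2-fold apart, beside 2.31% of all genes higher and 4.77% lower, so in 24 genes this says little. SLC25A15, the ornithine carrier of the urea cycle, read 392.1 on the MYC-labelled array, 296.0 on the PI3K array and 209.8 on the vector array. It was at least 1.68-fold higher on the MYC-labelled array than on the vector array, where it was not above background. The glutamate carrier SLC25A22 gave 0.65, the aspartate and glutamate exchanger SLC25A13 0.51, the phosphate carrier SLC25A3 0.45 and the citrate carrier SLC25A1 0.33. The ADP/ATP exchangers SLC25A4 and SLC25A5 gave 0.32 and 0.22, and copies of such abundant genes make single probes uncertain. The 2 mitoferrins, which bring iron into mitochondria, differed in sign: SLC25A37 gave 0.47 and SLC25A28 gave -0.78. SLC25A28 read 1753 on the MYC-labelled array, 2098 on the PI3K array and 3013 on the vector array, highest on the vector. The coenzyme A carrier SLC25A42 gave -0.45.

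Ion carriers had a median of 0.28 on the MYC-labelled array, with 13 of 17 (76.5%) above 0, beside 56.4% of all genes. None was at least 2-fold apart, beside 2.31% of all genes higher and 4.77% lower, so in 17 genes this says little. SLC9A4 and SLC9B2 passed the filter by the MYC-labelled array alone, which favours values above 0. Over the 15 ion carriers detected on both the MYC-labelled and vector arrays the median was 0.22, beside 0.090 over all such genes. The calcium exchanger SLC24A1 gave 0.63, the sodium, potassium and chloride cotransporter SLC12A2 0.62 and the chloride and bicarbonate exchanger SLC4A2 0.56. The sodium and proton exchanger SLC9B2, not above background on the vector array, was at least 1.40-fold higher. All 4 SLC12 members were above 0, from 0.0038 for SLC12A4 upward. The phosphate importers split, with SLC20A1 at 0.51 and SLC20A2 at -0.44. The bicarbonate cotransporter SLC4A5 gave -0.44.

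Metal and magnesium carriers also had a median of 0.28, with 12 of 15 (80%) above 0, beside 56.4% of all genes. SLC31A2 was the 1 gene of the 15 at least 2-fold lower, beside 4.77% of all genes. SLC30A5, which loads zinc into the secretory pathway, read 4186 on the MYC-labelled array, 2921 on the PI3K array and 2267 on the vector array, a difference of 0.88 from the vector by the brighter probe and 0.35 by the second. The zinc importer SLC39A3 gave 0.80 by 1 probe and 0.85 by the other. Of 8 SLC39 importers 7 were above 0, with a median of 0.30. The remaining importer, SLC39A1, gave -0.26.

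All 3 nucleoside and nucleobase carriers above background lay above 0 on the MYC-labelled array, beside 56.4% of all genes, and by less than 2-fold. The equilibrative nucleoside carrier SLC29A2 read 867.0 on the MYC-labelled array, 631.8 on the PI3K array and 612.1 on the vector array, a difference of 0.50 from the vector. SLC43A3, a purine nucleobase carrier, gave 0.22, and the concentrative carrier SLC28A1, close to background, 0.16.

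All 7 genes grouped as sugar and sugar phosphate carriers were above 0, with a median of 0.56, beside 56.4% and 0.067 over all genes. The group takes in the urate carrier SLC2A9 at 1.25, and the excepted SLC2A1 and SLC2A3 are not in it. SLC45A3, the highest, was above background on the MYC-labelled array alone, and over the 6 genes detected on both the MYC-labelled and vector arrays the median was 0.44. With the detection limit at 0.95 the group median was 0.27. With no filter it was 0.32, beside 0.23 over all genes. The lowest was SLC37A3 at 0.074, and SLC37A4, which brings glucose phosphate into the endoplasmic reticulum, gave 0.56. Vitamin and cofactor carriers had a median of 0.37 over 8 genes. SLC5A6, which takes up biotin and pantothenate, read 1181 on the MYC-labelled array, 905.5 on the PI3K array and 613.8 on the vector array, a difference of 0.94. The riboflavin carrier SLC52A2 gave 0.51, and the lysosomal protein SLC49A4 was the lowest of the group at -0.55. Of 7 fatty acid and bile acid carriers 4 were above 0, and the acyl-CoA synthetase SLC27A4 was at least 1.82-fold higher. The bile acid carrier family member SLC10A7 was the lowest, at -0.30 and close to background.

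With the detection filter, other groups lay lower on the MYC-labelled array. With no filter, the medians were 0.24 for the SLC35 family, 0.25 for amine and choline carriers and 0.27 for drug carriers. The all-gene median was then 0.23, so the sign of these group medians depends on the filter. The SLC35 family, mostly carriers of nucleotide sugars into the Golgi, had with the filter a median of -0.14. Of its members, 8 of 20 were above 0, beside 56.4% of all genes, from SLC35A5 at -0.64 to SLC35G1 at 0.85 (at least 1.75-fold). All 3 choline carriers of the SLC44 family were below 0: SLC44A2 read 1570 on the MYC-labelled array, 2676 on the PI3K array and 2998 on the vector array, a difference of -0.93 from the vector. The creatine carrier SLC6A8 gave 0.27. Organic ion and drug carriers had a median of -0.43 over 9 genes and of 0.22 when counted over the 4 genes detected on both the MYC-labelled and vector arrays, among them SLC22A15 at -0.86. The others, SLC22A4, SLC22A17, SLC22A23, SLC47A2 and SLCO3A1, were above background on the vector array alone, which favours values below 0. The monocarboxylate carrier SLC5A8 gave -0.61, and the peptide carrier SLC15A4 gave -0.28. Among members that are not carriers, the transcription regulator SLC2A4RG gave -0.56. The 9 carriers placed in no substrate group had a median of 0.26, from SLC67A1 at -0.016 to SLC68A1 at 0.65 (at least 1.47-fold).

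**Figure D2:**
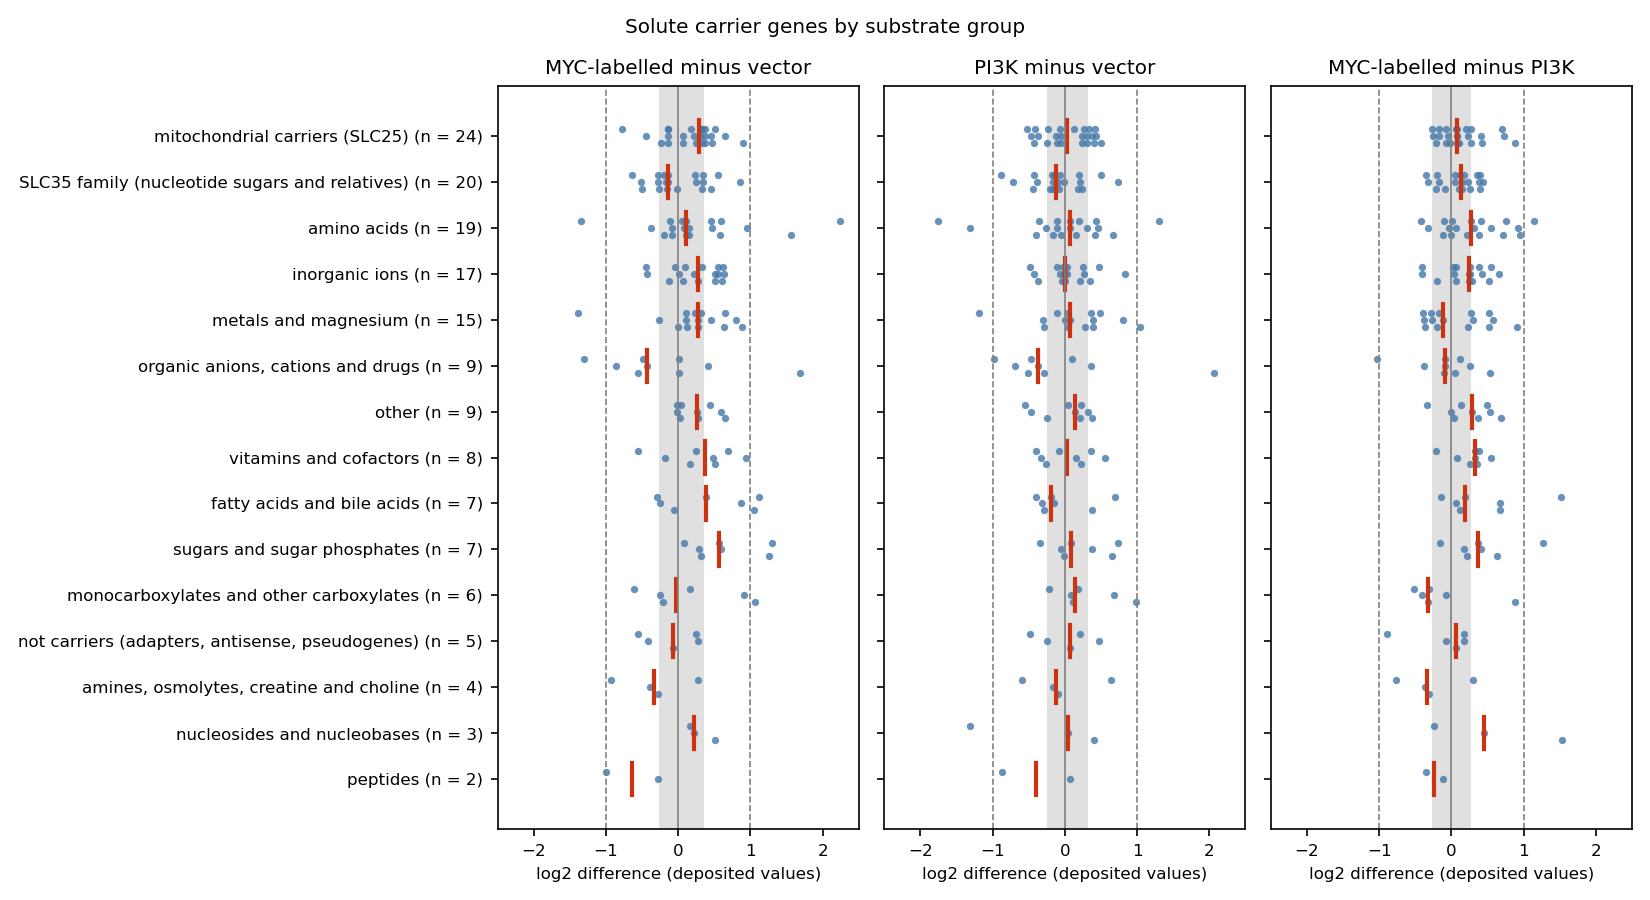
Log2 difference of each of 155 solute carrier genes by substrate group for the 3 comparisons (points), with the group median (red bar), the interquartile range of all 8148 genes (grey band) and 2-fold (dashed). On the MYC-labelled array the SLC25, ion and metal carriers have medians of 0.28, and on the PI3K array the same groups have medians of 0.036, 0.0088 and 0.065.

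The second comparison asks how transporter genes differ in cells carrying active PI3K. SLCO4A1 had the highest difference from the vector among solute carriers, and the zinc importer SLC39A10 also passed 2-fold. The glutamate transporter SLC1A3, the glycine transporter SLC6A9, the nucleobase carrier SLC43A3 and the copper transporter SLC31A2 were lower. Of the 155 genes, 3 (1.94%) were at least 2-fold higher, against 1.06% of all genes, and 4 (2.58%) lower, against 4.04%, so these shares lie near the background. Counted by bounds the numbers were 2 and 3, against 0.945% and 3.18%. The median was 0.0088, with 79 of 155 (51.0%) above 0, beside 0.051 and 55.0% over all genes. Centred on the all-gene median, 2 (1.29%) were higher, against 0.908% of all genes, and 5 (3.23%) lower, against 4.33%. Both comparisons share the vector array, so their values are given side by side and not as separate evidence. Since detection rested on the other 2 arrays, carriers bright on the PI3K array alone are not among the 155, and 2 such genes, SLC4A3 and SLC45A2, reached its limit.

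SLC39A10 read 542.9 on the PI3K array and 263.4 on the vector array, a difference of 1.04, and 412.7 on the MYC-labelled array. SLC7A2 read below the limit on the PI3K array and the vector array alike, so its difference of 1.30 gives no fold. SLC13A3, a dicarboxylate carrier, read 465.1 on the PI3K array and 234.0 on the vector array. Its difference was 0.99. Its second probe, at 261.2 on the PI3K array and 185.1 on the vector array, was below the limit on both and gives no fold. SLC12A2 gave 0.83, the magnesium carrier SLC41A1 0.81, the glucose transporter family member SLC2A6 0.74 and the creatine carrier SLC6A8 0.64.

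SLC1A3 differed from the vector by -1.76, a 3.38-fold lower level. SLC6A9, which takes up glycine, read 375.3 on the PI3K array and 927.3 on the vector array, a difference of -1.31, and 713.4 on the MYC-labelled array. Here the PI3K array stood below both others. SLC43A3 read 201.1 on the PI3K array, not above its limit, and 500.0 on the vector array, so it was at least 1.76-fold lower. Its second probe was also under that limit. The organic cation family member SLC22A15 gave -0.98, and all 5 SLC22 members were below 0. Of these, SLC22A4, SLC22A17 and SLC22A23 were above background on the vector array alone. They entered only because the vector array was bright, which favours values below 0, so the family count says little. SLC35B3, which carries the sulfate donor PAPS into the Golgi, gave -0.88, while SLC35B2, with the same substrate, gave 0.50.

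The larger groups lay around 0 on the PI3K array, where 55.0% of all genes were above 0. Amino acid carriers had a median of 0.066, with 10 of 19 above 0, and SLC3A2 gave -0.40, SLC1A5 -0.36 and SLC7A5 -0.26. Mitochondrial carriers had a median of 0.036, with 12 of 24 above 0. Among them SLC25A15 gave 0.50 (at least 1.27-fold) and the glutamate carrier SLC25A22 0.42, while SLC25A28 gave -0.52, the S-adenosylmethionine carrier SLC25A26 -0.47 and SLC25A37 -0.41. Ion carriers had a median of 0.0088, from SLC20A2 at -0.49 to SLC12A2. The SLC35 family had a median of -0.12, with 6 of 20 above 0. Nucleoside carriers apart from SLC43A3 gave 0.40 for SLC28A1 and 0.046 for SLC29A2. The choline carrier SLC44A1 gave -0.59, the acetyl-CoA carrier SLC33A1 -0.40 and the lysosomal family member SLC66A2 -0.54.

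**Figure D3:**
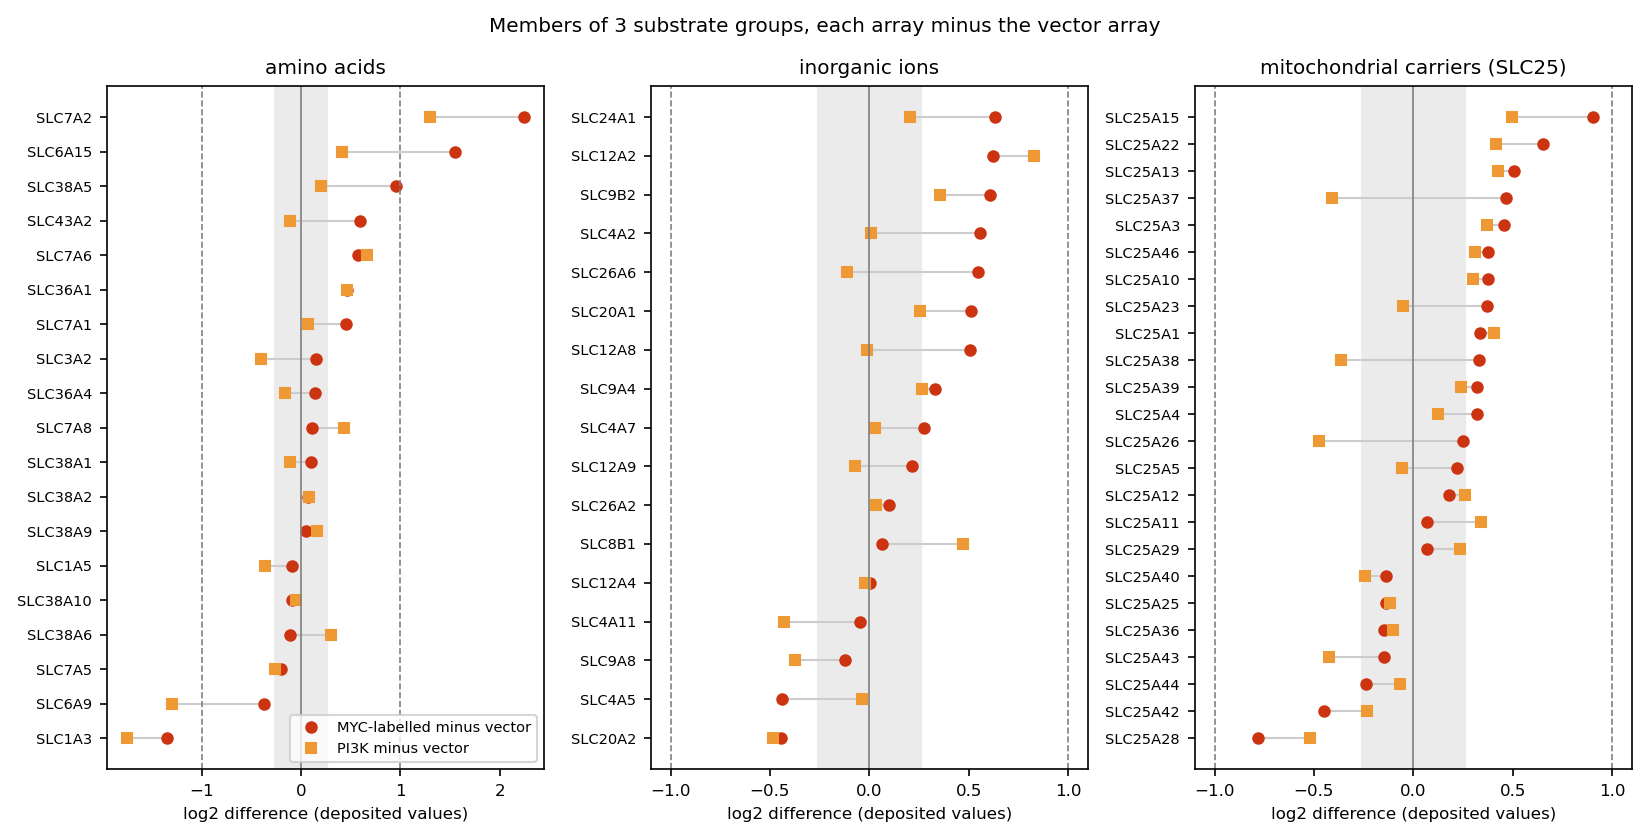
Log2 difference from the vector array for each amino acid, ion and mitochondrial carrier, on the MYC-labelled array (circles) and the PI3K array (squares), sorted by the first; the grey band is the technical SD of 0.26 and dashed lines are 2-fold. SLC1A3 and SLC7A2 end the amino acid panel, and SLC25A37, SLC25A38 and SLC25A26 lie above 0 on the MYC-labelled array and below 0 on the PI3K array.

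The last comparison is between the oncogenes, as the MYC-labelled array minus the PI3K array. SLC43A3, SLC27A2, SLC2A9 and SLC6A15 were at least 2-fold higher on the MYC-labelled array, and SLC47A2 was lower. These 4 genes are 2.58% of the 155, against 2.21% of all genes, and the 1 lower gene is 0.645%, against 2.39%. Counted by bounds the numbers were 4 and 0, against 1.73% and 1.85%. The median was 0.13, with 100 of 155 (64.5%) above 0, beside 0.0094 and 51.1% over all genes. Detection rested on the MYC-labelled or vector array, so genes bright on the PI3K array alone are missing, which can raise these values. With no detection filter, the medians were 0.048 for solute carrier genes and 0.025 for all genes. The shares at least 2-fold higher were then 1.08% and 1.11%.

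SLC43A3 read 583.2 on the MYC-labelled array and 201.1 on the PI3K array, at least 2.06-fold higher. Its second probe read 550.5 and 189.5, so both probes were under the PI3K limit. SLC27A2 was at least 2.43-fold higher. SLC2A9 gave 1.26 and SLC6A15 1.14, though the second SLC6A15 probe, just under the PI3K limit at 278.4, gave 0.27. Just short of 2-fold were the glycine transporter SLC6A9 at 0.93, the zinc importer SLC39A3 at 0.91, SLC16A9 at 0.88 and the mitoferrin SLC25A37 at 0.87. SLC7A2, dim on the PI3K array, was at least 1.80-fold higher on the MYC-labelled array. SLC25A38, which brings glycine into mitochondria for heme synthesis, gave 0.70 and SLC25A26 gave 0.72. All 5 SLC27 members were above 0, with a median of 0.67, beside 51.1% and 0.0094 over all genes. Of these, SLC27A4 passed the filter by the MYC-labelled array and not the vector array, which favours values above 0. SLC27A2 was under the PI3K limit, so the family count says little. SLC26A6, an anion exchanger, gave 0.66 by its brighter probe. Ion carriers were above 0 in 14 of 17 cases, beside 51.1% of all genes, with a median of 0.25. The mitochondrial calcium exchanger SLC8B1 was the lowest of them at -0.41. The SLC35 family was above 0 in 14 of 20 cases, beside the same 51.1%, with SLC35D2 the lowest at -0.36. SLC35G2, the highest, was not above background on either of these arrays, so it gives no fold. The carnitine transporter SLC22A5 gave 0.53, SLC66A3 0.69 and SLC38A6, the lowest amino acid carrier, -0.42. The oxoglutarate carrier SLC25A11, lowest in its family, gave -0.27.

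Lower on the MYC-labelled array than on the PI3K array was SLC47A2, by at least 1.40-fold. The antisense gene SLC67A1-AS read 236.0 on the MYC-labelled array and 436.9 on the PI3K array, at least 1.54-fold lower, beside -0.34 for the carrier gene SLC67A1. SLC44A2 gave -0.77 and SLC16A5, of the monocarboxylate family, -0.52. Metal carriers had a median of -0.11, with 7 of 15 above 0, and SLC39A10 was the lowest at -0.40. Monocarboxylate and other carboxylate carriers had a median of -0.32, with 1 of 6 above 0. Over all genes, 51.1% were above 0.

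**Figure D4:**
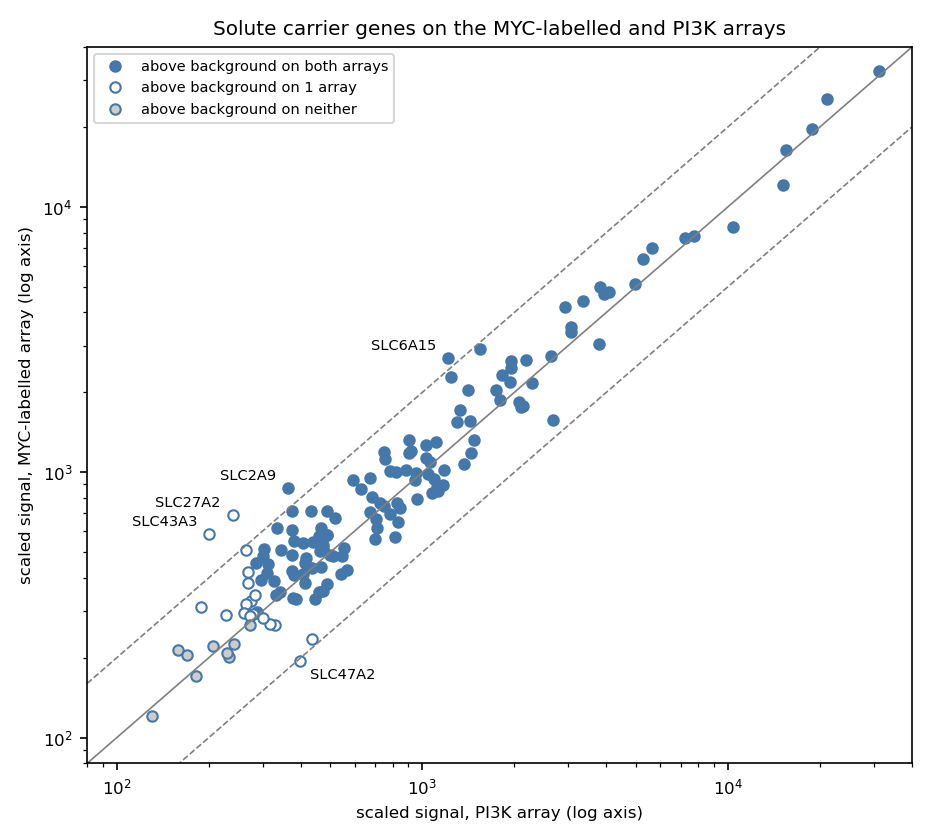
Scaled signal of the 155 solute carrier genes on the MYC-labelled array (vertical, log axis) and the PI3K array (horizontal, log axis), with equality (solid line) and 2-fold (dashed). Labelled are the 5 genes past 2-fold, 4 above the upper line and SLC47A2 below the lower one.

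Of the 10 members with more than 1 probe above background, the first 2 probes had the same sign in 10 genes in the first comparison, 9 in the second and 9 in the last. The exceptions were SLC39A3, at -0.11 and 0.12 on the PI3K array, and SLC13A3, at -0.076 and 0.30 in the last comparison, where the second probe was dim on the PI3K array.

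Carriers without an SLC platform symbol and partner subunits were read beside these. Of 24 such genes, 13 were above background and 0 passed 2-fold in any comparison. Over all genes, the shares past 2-fold ran from 1.06% to 4.77% by comparison and direction, so 0 of 13 says little. The median of the 13 was 0.17 on the MYC-labelled array from the vector, with 8 of 13 above 0, and 0.30 on the PI3K array, with 10 of 13. Over all genes, 56.4% and 55.0% were above 0. Basigin (BSG), the chaperone of monocarboxylate transporters, read 8451 on the MYC-labelled array, 8167 on the PI3K array and 6653 on the vector array. The pyruvate carrier subunits differed: MPC1 gave -0.0079 and 0.094 on the MYC-labelled array and the PI3K array, and MPC2 gave -0.66 and -0.79. The phosphate exporter XPR1 gave -0.23 and -0.74, and the cystine exporter CTNS 0.67 and 0.38.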

How the data were processed

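RNA from 3 RWPE1 cultures was measured on 1 Illumina array each. The authors deposited linear signal intensity without normalisation, per the file headers, with a detection value between 0 and 1 as a fraction. That value is named a p-value in the deposited header, but it rises with the signal (rank correlation 0.981 for the MYC-labelled array and 0.976 for the vector array), so it was taken as 1 minus the p-value of detection. The headers of the 2 other columns of that deposit name no sample, and the columns were left unused. Whether their values match the PI3K column was not tested. The submitters' processing notes name GenomeStudio without a version.

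The authors' second table holds log2 values. The difference between its columns for the MYC-labelled array and the vector equals the log2 ratio of the signals plus 0.517, the log2 ratio of the 75th percentiles (393.8 on the MYC-labelled array, 563.5 on the vector array). The constant taken from each probe is of unknown origin, and the PI3K column was assumed to be made alike. Column medians were 0.075 for the MYC-labelled array, 0.041 for the PI3K array and -0.16 for the vector array. Levels of the MYC-labelled array and the PI3K array are the vector signal times 2 to the power of the deposited difference. Over all probes, dim ones included, the median difference was 0.25 for MYC-labelled minus vector and 0.22 for PI3K minus vector.

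All 21834 named probes carry 1 symbol, 0 carry several, 2692 have none, and 21813 matched the table of current symbols. A gene took its brightest probe above background. For a bound, the bright level was divided by the dim array's limit (283.7 for MYC-labelled and PI3K, 233.3 for vector), or by the dim level itself where that was higher. The limit is the lowest level of a probe above background. Genes at least 2-fold apart were counted, and the number of arrays limits the precision. Named genes were the 8 highest and 8 lowest of each comparison, the highest and lowest of each substrate group of 3 or more, all past 2-fold and all nucleoside carriers, with others given beside them for their role and chosen after their values were seen. Members, groups and lists were chosen with earlier results of these data known. SLC7A6OS, caught by the pattern for amino acid carriers, was moved to the members that are not carriers. MFSD10 of the partner list is the member SLC75A1, and it stayed with the members. Python 3.11.15, pandas 2.3.3 and limma 3.58.1 were used, and the counting steps were tested on simulated data. Alternatives were limma's normexp (offset 50) with quantile normalisation, a detection limit of 0.95, detection on both arrays, no filter, averaged probes, probes counted singly and centring on the median.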

Additional observations from a re-analysis of the deposited data

How the results depend on the processing

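Counts of solute carrier genes past 2-fold and their medians were recomputed under 7 alternatives in each comparison. Counts moved by over 1.5 times in 2 cases. Centring on the median of all genes gave 5 genes lower on the MYC-labelled array than on the vector array, against 3, since SLC15A3 and SLC44A2 then passed, while SLC16A9, SLC27A5 and, on the PI3K array, SLC39A10 no longer reached 2-fold. Requiring detection on the MYC-labelled and vector arrays alike left 0 genes lower on the MYC-labelled array than on the PI3K array, against 1, because SLC47A2 was no longer included. That filter also removed SLC7A2, SLC45A3 and SLC47A2 from the first comparison. Averaging probes took SLC6A15 to 0.99 and 0.71 in its comparisons with the vector and PI3K arrays. Normexp with quantile normalisation kept all 11, 7 and 5 genes called in the 3 comparisons and added SLC15A3 and SLC22A15 to those lower on the PI3K array (6 against 4). It also added SLC15A3 to those lower on the MYC-labelled array than on the vector array (4 against 3). SLC7A2 joined those higher on the MYC-labelled array than on the PI3K array (5 against 4). The median of the drug carriers on the MYC-labelled array was 0.22 with detection on both arrays and 0.27 with no filter, in place of -0.43. That of the SLC35 family was 0.24 with no filter, in place of -0.14. That of the amine, osmolyte, creatine and choline carriers was 0.25 with no filter, in place of -0.34. That of the monocarboxylate and other carboxylate carriers was 0.31 with no filter, in place of -0.025. The all-gene median with no filter was 0.23, so the drug, SLC35 and amine groups lay near it. The median of the sugar carriers was 0.27 at a detection limit of 0.95, in place of 0.56. The cause was not tested. Of 294 group medians recomputed, 275 moved by less than the technical SD, as did 572 of 576 values of named genes. That SD is larger than many of the medians, so the count does not show that they are stable. With no filter, the median of members that are not carriers went from -0.076 to 0.18 on the MYC-labelled array. The PI3K median over solute carrier genes went from 0.0088 to 0.22, beside 0.20 over all genes. Both moves were under the SD. No called gene changed sign in the alternatives run. No paired analysis was possible because each group has 1 array and no test was made. Signals near background limit what dim carriers can show.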
